A study of Mus musculus with 10 samples.

Results

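The imprinted mouse genes Dlk1, Meg3, H19, Peg3, Mest, Cdkn1c, Grb10, Plagl1, Ndn and Peg10, were followed in 2 cell layers of the mammary gland, and the question was whether the restriction of Dlk1 to basal cells extends to other imprinted growth genes. The genes were chosen by name, 10 of 24594 in the count table, after Dlk1 had been read as basal in these same libraries. The luminal to basal contrast of Dlk1 is therefore given as a description without a test. The other 9 genes were listed with earlier results of these libraries known, so their tests are not independent evidence. All libraries came from the virgin glands of wild-type C57BL/6J mice, and the labels name no transgene, treatment or age. After enzymatic dissociation of the gland, the inner, milk-producing layer (luminal) and the outer, contractile layer (basal) were sorted by the surface proteins EpCAM and CD49f. There were 5 luminal and 5 basal libraries of bulk RNA. The sort gates were not divided further, so luminal progenitor and mature cells share the luminal libraries.

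Genomic imprinting leaves a gene active on the copy from only one parent, through DNA methylation laid down in the germ line and read at a control region that often serves a whole cluster of genes. As a broad rule, many paternally expressed genes promote growth of the fetus and placenta and many maternally expressed genes restrain it. Of the genes followed here Dlk1, Peg3, Mest, Plagl1, Ndn and Peg10 are expressed from the paternal copy, and Meg3, H19 and Cdkn1c from the maternal copy. Grb10 is maternal in most tissues and paternal in neurons. In many tissues these genes fall after birth and stay on in stem and progenitor cells. The animals were of an inbred strain and the data hold no allele information, so every value is the sum of both copies.

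Library totals ran from 13203146 to 17998165 counts. Values are read counts scaled to library depth (CPM), with library totals adjusted by the trimmed mean of M values (TMM). In every sample title luminal and basal are the reverse of what the cell type label says, and the label, which the source name and the description share, was used here. Markers followed that label, since all 8 luminal markers were higher in luminal and all 7 basal markers higher in basal libraries. Nothing in the labels says that the libraries came from separate animals, so the p-values measure the spread between these libraries, which may be technical in part. In bulk RNA, fewer cells of a type and less RNA per cell cannot be told apart.

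Marker genes of pericytes, the contractile cells around small vessels, also moved with cell type. Over all genes tested, 31.2% were higher in basal and 33.6% in luminal libraries. All 4 tested of 5 pericyte markers were higher in basal libraries, with a summed level of 31.7 to 45.4 CPM against 0 to 2.45 CPM in luminal libraries. These 4 passed the filter on low counts only through their basal libraries, so that they share a direction is not a result. The fifth, Abcc9, was too low to test and overlapped between the groups. The leading marker, Rgs5, held 21.7 CPM in basal and 0.159 CPM in luminal libraries. Summed endothelial markers were at 6.56 to 14.4 CPM in basal and 1.69 to 4.06 CPM in luminal libraries, and 1 of 2 tested was higher in basal cells. Summed fibroblast markers overlapped, at 18.1 to 35.3 CPM in basal and 16.3 to 36.1 CPM in luminal libraries, and 1 of 6 was higher in basal cells. Summed adipocyte markers were at 3.95 to 8.88 CPM in basal and 0.611 to 2.26 CPM in luminal libraries, with 1 of 1 tested higher in basal cells and Adipoq at 0 in all 10. Summed immune markers were at 12.2 to 34.4 CPM in basal and 4.13 to 11.3 CPM in luminal libraries. The immune list split, with Cd74 higher in basal, Cd52 and Lyz2 higher in luminal and Cd3e at 0 throughout. Schwann cell markers summed to 98.7 to 132 CPM in basal and 271 to 312 CPM in luminal libraries, most of it Mbp. Red blood cell markers reached 0.188 CPM in basal and 3.37 to 16.8 CPM in luminal libraries. The part of these other cell types in the results that follow was not tested.

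Dlk1 encodes a membrane protein with EGF-like repeats, related to the Notch ligands, that holds back adipocyte differentiation (chr12:109452485-109463336, GRCm38.p6). It was at 22.8, 27.5, 35.6, 14.1 and 39.6 CPM in basal replicates 1 to 5. The luminal libraries held 0, 0, 0, 0 and 0.127 CPM, the last being 2 reads in luminal replicate 5. All basal libraries therefore lay far above all luminal libraries, the lowest basal value being 14.1 CPM. Basal libraries held 2114 Dlk1 reads in all and luminal libraries 2, a depth-scaled ratio of 1110 with a 95% counting interval of 307 to 9173 (exact binomial, counting error only). Set against a level of 3 reads in each luminal library, the basal mean of 27.9 ± 10.1 CPM (SD, n = 5) was 147-fold higher.

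Meg3 is a maternally expressed long noncoding RNA that lies downstream of Dlk1 in the same imprinted domain (chr12:109540996-109571729). It was at 70.5, 31.4, 13.5, 30.0 and 36.3 CPM in basal replicates 1 to 5 and at 0.250, 0.158, 0.307, 0.764 and 0 CPM in luminal replicates 1 to 5. The groups did not overlap, and luminal levels were under 1 CPM in every library. Meg3 was higher in basal cells by 6.99 ± 0.57 (SE) on the log2 scale (edgeR quasi-likelihood test, adjusted p = 1.01e-07). With other processing or a library left out it ran from 6.58 to 7.60, the latter without luminal replicate 4. The difference of 6.99 was the largest among the 7 listed genes tested, in a gene expressed from the other parental copy than Dlk1.

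Plagl1 encodes a zinc finger transcription factor that can arrest the cell cycle and acts on a network of other imprinted genes (chr10:13090832-13131694). Its basal levels were 74.8, 28.7, 31.0, 26.6 and 49.3 CPM, and its luminal levels 12.5, 12.0, 13, 17.5 and 8.12 CPM. Every basal library exceeded every luminal one, but the gene was well detected in both cell types. The difference was 1.74 ± 0.29 (SE) on the log2 scale, or 3.34-fold (edgeR, adjusted p = 0.000117).

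Peg3, a paternally expressed zinc finger gene linked to growth and maternal behaviour (chr7:6703892-6730462), was at 7.92, 14.0, 5.65, 5.94 and 7.13 CPM in basal libraries. Luminal libraries held 2.81, 0.843, 2.70, 0.229 and 1.52 CPM. The groups did not overlap, and the luminal values spread over a wider ratio than the basal ones. Peg3 was higher in basal cells by 2.31 ± 0.49 (SE) on the log2 scale, or 4.97-fold (edgeR, adjusted p = 0.000844).

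Grb10 encodes an adaptor that dampens insulin and growth factor receptor signalling (chr11:11930499-12037428). Basal levels were 22.1, 20.1, 15.9, 24.9 and 18.2 CPM and luminal levels 12.1, 13.1, 12.1, 6.80 and 9.45 CPM, again without overlap. The basal excess was 0.92 ± 0.20 (SE) on the log2 scale, or 1.89-fold (edgeR, adjusted p = 0.00122).

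Mest encodes an enzyme of the hydrolase family that is expressed from the paternal copy and marks growing adipose tissue (chr6:30733506-30748466). Its basal levels of 21.6, 14.5, 8.59, 10.9 and 9.35 CPM overlapped its luminal levels of 7.0, 2.74, 5.40, 11.3 and 9.58 CPM. Mest was higher in basal cells by 0.85 ± 0.35 (SE) on the log2 scale (edgeR, adjusted p = 0.0464), a call close to the threshold. Without basal replicate 1 the difference was 0.57 and the adjusted p 0.172, and the call was also lost without basal replicate 2 or luminal replicate 1, 2 or 3 and with upper-quartile factors or library totals in place of TMM. Part of the Mest exons (912 bases) lies opposite exons of Copg2, and the counting is not stated to use strand, so reads there cannot be assigned to either gene.

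H19 went the other way. This maternally expressed noncoding RNA (chr7:142575530-142578146), which restrains growth and is the host of miR-675, was at 8.19, 13.6, 4.97, 0.993 and 3.43 CPM in luminal replicates 1 to 5. Basal libraries held 0.686, 1.57, 1.39, 0.125 and 1.38 CPM. The groups overlapped through luminal replicate 4, which lay below 3 basal libraries. The basal minus luminal difference of H19 was -2.60 ± 0.65 (SE) on the log2 scale, making it 6.08-fold higher in luminal cells (edgeR, adjusted p = 0.00275). Its basal libraries alone would not have passed the filter on low counts, so the filter favoured this direction.

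Cdkn1c encodes p57, an inhibitor of cyclin-dependent kinases (chr7:143458339-143461059). Luminal levels were 7.44, 6.58, 7.30, 6.72 and 4.19 CPM and basal levels 3.68, 4.50, 3.64, 5.50 and 7.25 CPM. The groups overlapped, with the lowest luminal and the highest basal library both being replicate 5. The basal minus luminal difference was -0.39 ± 0.27 (SE) on the log2 scale (edgeR, adjusted p = 0.215). An antisense transcript covers 625 bases of the Cdkn1c exons, where the strand of reads is not known.

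Ndn, a paternally expressed growth suppressor of the Prader-Willi region (chr7:62348277-62349928), and Peg10, a retrotransposon-derived gene needed in the placenta (chr6:4747306-4760517), were too low to test. Basal libraries held 0, 9, 5, 0 and 5 Ndn reads and luminal libraries 0, 0, 3, 0 and 0, a depth-scaled ratio of 6.65 with a 95% counting interval of 1.96 to 35.1. Peg10 was read 1 time in basal libraries and 6 times in luminal libraries, a ratio of 5.71 in the luminal direction with an interval of 0.693 to 263. At this depth no difference in Peg10 was detectable.

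**Figure D1:**
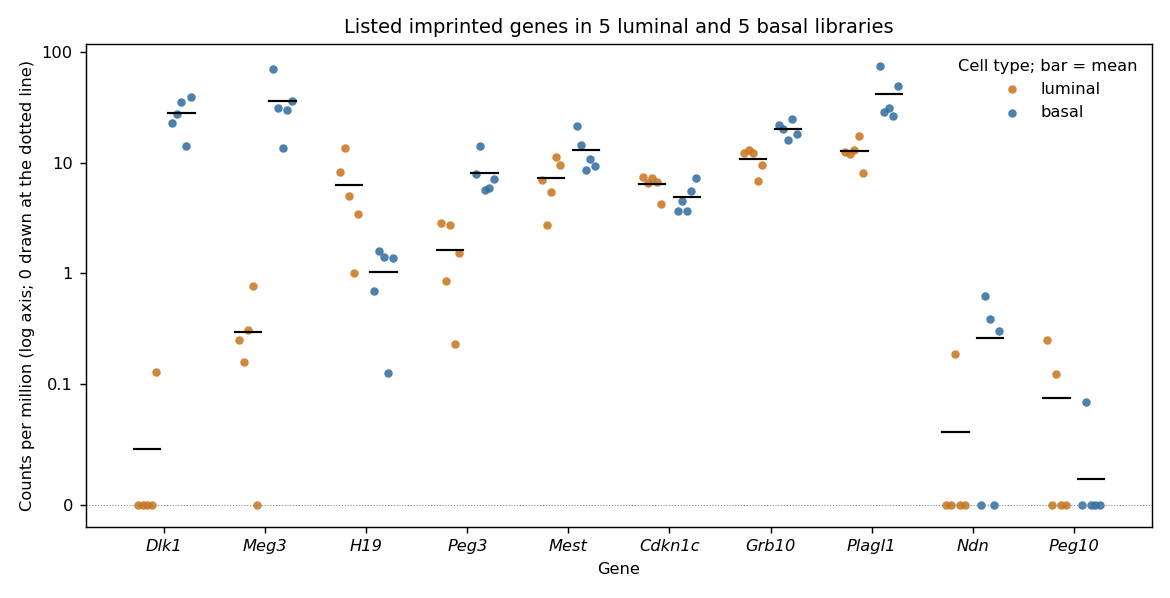
CPM (log axis, 0 drawn at the dotted line) of the 10 listed genes, with a point for each of the 5 luminal and 5 basal libraries and a bar at each group mean. Dlk1 and Meg3 are near 0 in luminal libraries, Peg3, Grb10 and Plagl1 separate the groups with luminal expression retained, H19 is higher in luminal cells, and Ndn and Peg10 stay below 1 in every library.

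Of the 9 listed genes other than Dlk1, 7 were tested, and 5 of these were higher in basal cells (Meg3, Plagl1, Peg3, Grb10 and Mest), 1 was higher in luminal cells (H19) and 1 did not pass (Cdkn1c). Over all 14609 genes tested, 31.2% were higher in basal and 33.6% in luminal cells at an adjusted p under 0.05. In 4 of the 7 every basal library lay above every luminal library, against 25.3% of all genes tested, and in none did every luminal library lie above every basal library, against 24.7% of all genes. The median log2 difference of the 7 genes was 0.92, against -0.05 over all genes tested. Both basal-high and luminal-high genes included a maternally expressed noncoding RNA. Meg3 passed the filter on low counts through its basal libraries alone, so its direction was fixed once it was tested. The filter also favoured the directions of H19, whose basal libraries alone would not have passed it, and Peg3, whose luminal libraries alone would not. A near absence from luminal libraries, as seen for Dlk1, was seen in Meg3 alone among the tested genes of the list. A filter of at least 10 reads in every library left out Meg3, Peg3 and H19. Of the 4 listed genes still tested (Plagl1, Grb10, Mest and Cdkn1c), 3 were higher in basal and 0 in luminal cells. The 0 follows from the loss of H19, the only luminal call, and 1 of the 3 is Mest, a call close to the threshold. The shares of all genes given above are not those under this filter.

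Levels were set side by side per kilobase of the longest annotated transcript, because longer transcripts collect more reads. In basal cells Plagl1 (8.0 ± 3.88 CPM per kilobase, SD, n = 5), Dlk1 (6.00 ± 2.18) and Mest (4.87 ± 1.99) came first. Grb10 (4.0 ± 0.69), Cdkn1c (2.59 ± 0.80) and Meg3 (2.50 ± 1.44) followed, then Peg3 (0.935 ± 0.391) and H19 (0.451 ± 0.266). In this order each gene overlapped the next within 1 SD. The aligner was not splice-aware, which lowers genes with many short exons, so the order is approximate. In luminal cells Cdkn1c led with 3.39 ± 0.69 CPM per kilobase, before H19 (2.73 ± 2.13), Mest (2.70 ± 1.27), Plagl1 (2.40 ± 0.63) and Grb10 (2.12 ± 0.51). Here too each gene overlapped the next within 1 SD, but Cdkn1c and Grb10 did not overlap. Dlk1, among the first 3 in basal cells, was last of these 8 genes in luminal cells at 0.00545 ± 0.0122 CPM per kilobase.

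The stretch before a transcription start is shown for Dlk1, Meg3, Peg3, Plagl1 and Mest, which were higher in basal cells and lie on 4 different chromosomes. Grb10, on a further chromosome, was also higher in basal cells, and its windows are not printed. The sequences are from the RefSeq promoter table of GRCm38.p6. Promoters were found for 7 of the 10 listed genes, and H19, Cdkn1c and Peg10 had no entry. Meg3 had 2 entries and Mest 3, of which 1 each is printed. Each line gives the 250 bases before a start, 5′ to 3′ along the gene's strand. The Dlk1 and Mest windows lie inside the gene intervals given above and the Peg3 window lies in part inside its own. These windows are therefore not the stretch before the outermost start of the gene. Capitals mark matches on either strand to 4 motifs. The first, TGCCGC, is the core that the imprint keeper ZFP57 binds when methylated. The second, GGAATG, is bound by the TEAD partners of YAP. The third, AGATAA, is a GATA site. The fourth is the CArG box bound by SRF.
Dlk1, chr12:109452573-109452822, plus strand: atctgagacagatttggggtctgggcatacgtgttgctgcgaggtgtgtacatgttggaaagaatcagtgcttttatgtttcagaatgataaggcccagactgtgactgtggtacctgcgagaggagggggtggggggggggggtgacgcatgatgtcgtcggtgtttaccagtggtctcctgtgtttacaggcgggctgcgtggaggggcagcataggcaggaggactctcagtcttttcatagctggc
Meg3, chr12:109540746-109540995, plus strand: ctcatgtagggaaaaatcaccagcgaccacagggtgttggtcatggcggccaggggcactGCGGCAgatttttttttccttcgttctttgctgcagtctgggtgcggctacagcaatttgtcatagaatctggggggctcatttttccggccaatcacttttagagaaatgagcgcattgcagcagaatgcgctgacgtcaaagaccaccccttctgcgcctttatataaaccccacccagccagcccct
Peg3, chr7:6730420-6730669, minus strand: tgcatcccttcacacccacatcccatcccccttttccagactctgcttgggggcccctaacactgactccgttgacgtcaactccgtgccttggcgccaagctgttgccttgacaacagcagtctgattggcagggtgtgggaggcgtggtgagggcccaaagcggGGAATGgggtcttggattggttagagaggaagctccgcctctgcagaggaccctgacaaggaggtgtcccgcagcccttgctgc
Plagl1, chr10:13090582-13090831, plus strand: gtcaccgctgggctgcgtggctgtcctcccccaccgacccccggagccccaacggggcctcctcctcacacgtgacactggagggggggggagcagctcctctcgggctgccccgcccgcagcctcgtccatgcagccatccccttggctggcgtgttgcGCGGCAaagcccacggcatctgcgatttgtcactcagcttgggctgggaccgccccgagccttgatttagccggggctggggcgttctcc
Mest, chr6:30737800-30738049, plus strand: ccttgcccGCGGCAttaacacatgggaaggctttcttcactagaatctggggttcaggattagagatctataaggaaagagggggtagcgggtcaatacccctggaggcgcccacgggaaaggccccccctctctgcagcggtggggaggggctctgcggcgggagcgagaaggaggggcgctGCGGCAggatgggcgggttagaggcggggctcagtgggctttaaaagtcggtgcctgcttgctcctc
The Dlk1 window held none of the 4 motifs and 8 CpG dinucleotides, against a median of 6 over 32851 promoters. The Meg3 and Plagl1 windows held 1 match to TGCCGC each and this Mest window 2, where 8.68% of all promoters held at least 1. The Mest window that overlaps the printed one also held 2. The other Meg3 window, the Mest window at chr6:30733256-30733505 and the Ndn window held none. The Peg3 window held 1 GGAATG, found in 12.6% of all promoters. AGATAA was found in 9.99% and the CArG box in 1.47% of all promoters, and neither was in the windows printed here, although the other Meg3 window held 1 CArG box. The 2 windows of Grb10 held none of the motifs. A match here is a run of letters and not a measured binding site.

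The neighbours of Dlk1 were read next, since the domain between Dlk1 and Dio3 is controlled as a unit. These neighbouring genes were chosen by position after values in the domain had been seen. From the start of Dlk1 to the end of Dio3, over 829 kb, the table held 74 genes, of which 66 were microRNA or small nucleolar RNA (snoRNA) genes. The genes of the domain with enough reads to fit were Dlk1, Meg3, Rian and the snoRNA DQ267101, whose reads lie in a Rian exon. All 4 passed the filter on low counts through their basal libraries alone, so that they share a direction is not a result. Rian, a maternally expressed host of snoRNAs, was at 27.6, 10.4, 5.11, 7.13 and 11.5 CPM in basal libraries and at 0, 0, 0.0613, 0 and 0.0634 CPM in luminal libraries. The groups did not overlap, and the log2 difference was 8.55 ± 0.72 (SE; edgeR, adjusted p = 1.38e-07). Luminal libraries held 2 Rian reads and basal libraries 966, a ratio of 507 with a 95% counting interval of 140 to 4195. Mirg, the maternally expressed microRNA host at the far end, was at 2.25, 0.682, 1.32, 0 and 0.839 CPM in basal libraries and at 0 to 0.263 CPM in luminal libraries, and was too low to test. Dio3, a paternally expressed gene for the enzyme that inactivates thyroid hormone, held 12, 26, 4, 0 and 5 reads in basal libraries and none in luminal libraries, which makes it at least 3.30-fold higher in basal cells against a floor of 3 reads per library. Without basal replicate 2, which held 26 of the 47 Dio3 reads, the bound was 1.79-fold, a setting chosen after the values were seen. Rtl1, a paternally expressed retrotransposon-like gene whose interval begins 112 kb after the Dlk1 start, held 3 or fewer reads in every library. Of the 66 small RNA genes 49 were at 0 throughout, and the rest held 496 basal and 8 luminal reads. Such reads in a messenger RNA library come from longer transcripts and do not measure mature microRNAs. The Mir1906-1 interval, inside Meg3, held 87, 25, 14, 4 and 43 reads in basal libraries and none in luminal libraries.

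Outside the domain the direction was mixed. Of 7 tested genes within 500 kb on either side 1 was higher in basal cells and 3 in luminal cells, against 31.2% and 33.6% of all genes tested. The basal one, Begain, passed the filter on low counts only through its basal libraries, so its direction was fixed once it was tested. Begain, a synaptic scaffold gene 420 kb before Dlk1, was at 20.8, 18.3, 15.9, 14.9 and 31.3 CPM in basal libraries and at 0 to 0.375 CPM in luminal libraries, a log2 difference of 6.61 ± 0.43 (SE; edgeR, adjusted p = 9.43e-09). Ppp2r5c, the first expressed gene after Dio3, encodes a phosphatase subunit and was lower in basal cells (log2 difference -0.50 ± 0.14, SE; edgeR, adjusted p = 0.00768). Wdr25 and Hsp90aa1 were the other luminal-high genes of the flanks.

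**Figure D2:**
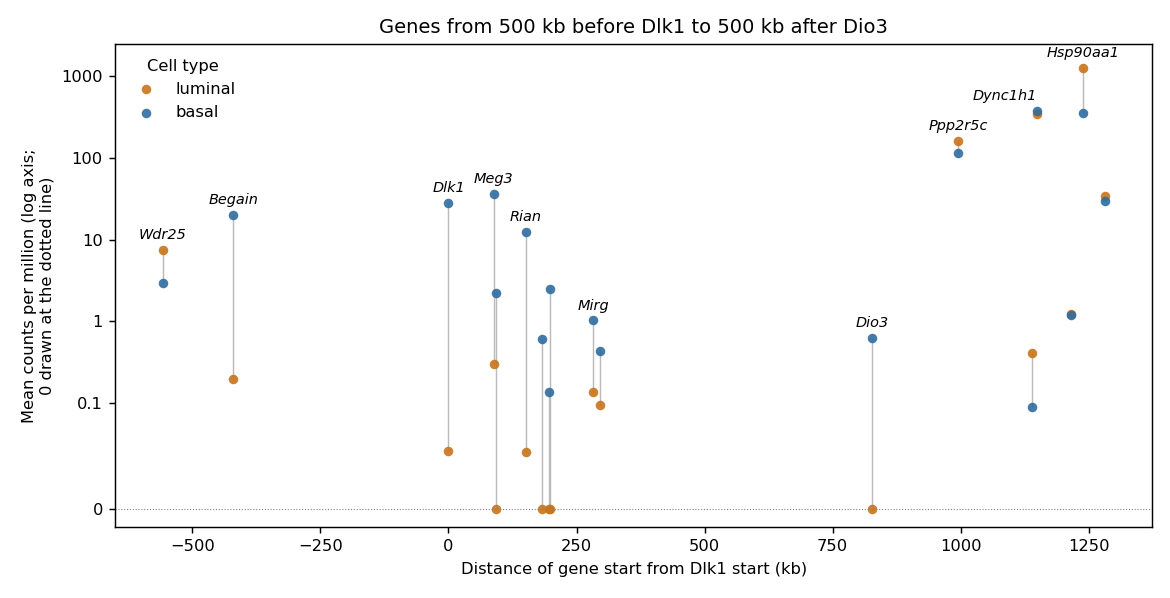
Mean CPM (log axis, 0 drawn at the dotted line) in luminal and basal libraries of each gene with more than 10 reads in all, by the distance of its start from that of Dlk1 in kb, with a grey line joining the 2 means of a gene. From Dlk1 to Dio3 all basal means lie above the luminal means, while genes after Dio3 are expressed in both cell types.

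The genes of the domain did not move in step over the basal libraries. Meg3 and Rian were both highest in basal replicate 1 and lowest in basal replicate 3, at 1.94 and 2.24 times their basal means in replicate 1 and at 0.373 and 0.414 times in replicate 3. The ratio of Meg3 to Rian reads stayed between 2.56 and 4.21. Dlk1 was highest in basal replicate 5, at 1.42 times its mean, and lowest in basal replicate 4, at 0.506 times. The ratio of Meg3 to Dlk1 reads ran from 0.380 in basal replicate 3 to 3.10 in basal replicate 1. Basal replicate 1 was also the highest basal library for Mest and Plagl1, at 1.66 and 1.78 times their means, and for Nap1l5 and Nnat outside the list, at 2.21 and 1.78 times. With 5 libraries per group no correlation was computed within basal cells. The coefficient of variation over basal libraries was 17.2% for Grb10, 36.3% for Dlk1, 57.5% for Meg3 and 72% for Rian.

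**Figure D3:**
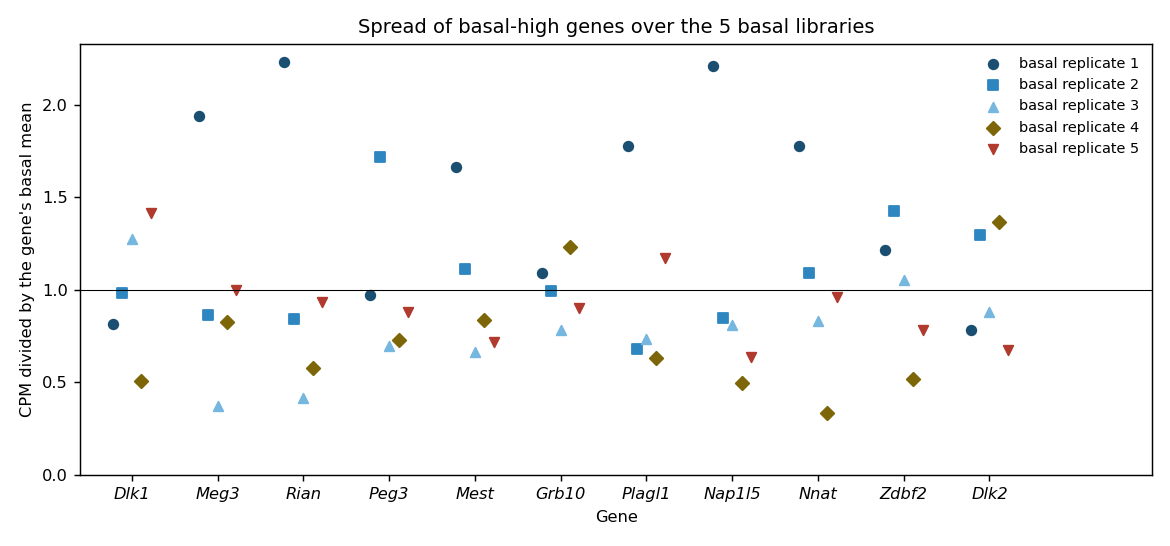
CPM in each of the 5 basal libraries divided by the mean of the gene over those libraries, for 11 genes higher in basal cells, with a symbol for each replicate and a line at 1. Replicate 1 is at 1.94 for Meg3 and 2.24 for Rian but at 0.816 for Dlk1, and Grb10 shows the least spread.

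H19 shares its control region with Igf2, the paternally expressed insulin-like growth factor. Igf2 was at 2.06, 1.05, 2.02, 0.229 and 3.93 CPM in luminal libraries and at 0, 0, 0.387, 0 and 0.120 CPM in basal libraries, and it was not tested under the filter on low counts. For both genes luminal replicate 4 was the lowest luminal library, but H19 was highest in replicate 2 and Igf2 in replicate 5, and the ratio of H19 to Igf2 ran from 0.871 to 12.9 over the luminal libraries. The interval of Mir675, within the H19 exons, held 15, 11, 4, 2 and 9 reads in luminal libraries and none in basal libraries, or at least 2.51-fold more against 3 reads per library. Its mature products are shown because miR-675 is the processed output of H19, with the seed (bases 2 to 8) in capitals, from RefSeq on the minus strand of chromosome 7.
mmu-miR-675-5p, chr7:142577112-142577133: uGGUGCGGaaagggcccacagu
mmu-miR-675-3p, chr7:142577078-142577099: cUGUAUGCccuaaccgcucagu
Neither seed was shared with another of the 1738 mature sequences in the table. Ins2, the third gene of the cluster, held 2 luminal reads and 1 basal read.

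The neighbours of Peg3, Mest, Plagl1 and Grb10 followed. Near Peg3, Usp29 (a deubiquitinase gene) differed by -0.57 ± 0.44 (SE) on the log2 scale (edgeR, adjusted p = 0.278), and Zim1, a maternally expressed zinc finger gene, held 23 reads in basal libraries and none in luminal libraries. Beside Mest, Copg2, which encodes a coat protein of transport vesicles, was lower in basal cells (log2 difference -1.17 ± 0.28, SE; edgeR, adjusted p = 0.00234), so these neighbours went in opposite directions. Klf14, a maternally expressed transcription factor gene, was at a mean of 0.673 CPM in basal and 0.633 CPM in luminal libraries. Phactr2, next to Plagl1, encodes a phosphatase and actin regulator and was higher in basal cells by 0.77 ± 0.20 (SE; edgeR, adjusted p = 0.00385). Ddc, the neighbour of Grb10, encodes an enzyme of dopamine and serotonin synthesis and was at a mean of 0.146 CPM in basal and 0.0839 CPM in luminal libraries.

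Around Cdkn1c 2 of 9 tested genes were called in the luminal direction and 0 in the basal one, against 33.6% and 31.2% of all genes tested. Slc22a18, a transporter gene imprinted with Cdkn1c, was at 12.2, 28.8, 23.5, 29.9 and 18 CPM in luminal libraries and held 3 reads in all in basal libraries. It passed the filter on low counts only through its luminal libraries, so its direction was fixed once it was tested. Its luminal to basal ratio was 571 with a 95% counting interval of 195 to 2773, and the log2 difference was -8.89 ± 0.51 (SE; edgeR, adjusted p = 3.05e-09). Over the alternatives that difference ran from -8.61 to -9.83, the latter without basal replicate 5, which held 2 of the 3 basal reads. Phlda2, a maternally expressed brake on placental growth, was lower in basal cells (log2 difference -1.34 ± 0.49, SE; edgeR, adjusted p = 0.0277), a call lost under 3 of 16 alternatives. The cluster's other 7 tested genes, Kcnq1ot1, Kcnq1, Cd81, Tssc4, Osbpl5 and Nap1l4 as well as Cdkn1c itself, did not pass. Kcnq1ot1 and Kcnq1 had nearly the same counts in basal libraries, at ratios of 0.929 to 0.996, and differed more in luminal libraries, at ratios of 0.480 to 0.907. Their annotated exons overlap on opposite strands by only 121 of the 93092 exon bases of Kcnq1ot1. The counting is not stated to use strand, so reads there cannot be assigned to either gene. Whether the 2 genes were counted from the same reads beyond that overlap was not tested. The values of the 2 genes were therefore not read as independent of each other. Ascl2, a transcription factor gene of the placenta, was at 0.499 to 2.63 CPM in basal and 0 to 0.579 CPM in luminal libraries, and Tspan32 held 2 basal and 14 luminal reads.

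In the cluster of Peg10, a gene almost silent here, 4 of 5 tested genes were higher in luminal cells, against 33.6% of all genes tested. Of these, Ppp1r9a and Sgce passed the filter on low counts only through their luminal libraries, so their direction was fixed once they were tested. Ppp1r9a, which encodes an actin-binding scaffold, was at 10.7 to 16.6 CPM in luminal and 0.250 to 0.899 CPM in basal libraries, a log2 difference of -4.77 ± 0.32 (SE; edgeR, adjusted p = 1.51e-08). Sgce, the paternally expressed sarcoglycan gene that starts beside Peg10, was at 0.685 to 2.50 CPM in luminal and 0 to 0.155 CPM in basal libraries (log2 difference -3.85 ± 0.67, SE; edgeR, adjusted p = 0.000157). The paraoxonase genes Pon3 and Pon2 were lower in basal cells, with log2 differences of -2.74 ± 0.26 and -1.0 ± 0.18 (SE; edgeR, adjusted p = 5.08e-07 and 0.000267), while Casd1 did not pass, and Asb4, Calcr and Tfpi2 were below 1 CPM on average in both cell types.

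In the Prader-Willi region that holds Ndn, the calls were split. Snurf and Snrpn, read from a shared paternally expressed transcript, were lower in basal cells, with log2 differences of -3.02 ± 0.28 and -2.41 ± 0.22 (SE; edgeR, adjusted p = 4.00e-07 and 3.42e-07). Their exons overlap on the same strand, so their reads cannot be assigned to either gene. Atp10a, a lipid flippase gene, was higher in basal cells by 1.07 ± 0.28 (SE; edgeR, adjusted p = 0.00367) and Ube3a, a ubiquitin ligase gene imprinted in neurons, by 0.35 ± 0.13 (SE; edgeR, adjusted p = 0.0240), a call lost under 6 of 17 alternatives. Mkrn3 and Peg12 did not pass, and Magel2 was at 0 in all 10 libraries.

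Beyond these clusters, the genes with the largest basal differences in the wider list were Nap1l5, Zdbf2 and Nnat, along with Rian and Atp10a. Nap1l5, a paternally expressed histone chaperone-like gene, was at 26.3, 10.1, 9.59, 5.88 and 7.55 CPM in basal libraries and at 0, 0.316, 0, 0 and 0 CPM in luminal libraries (log2 difference 7.19 ± 0.76, SE; edgeR, adjusted p = 1.32e-06). All 6 luminal reads of Nap1l5 were in luminal replicate 2, without which the fitted difference was 10.5 and, against a floor of 3 reads per library, the basal mean stood at least 60.0-fold higher. The lowest fitted difference of Nap1l5 over the alternatives was 6.67. Zdbf2, a paternally expressed gene linked to postnatal growth, was at 3.63 to 9.96 CPM in basal and 0.158 to 0.571 CPM in luminal libraries (4.42 ± 0.44, SE; edgeR, adjusted p = 7.74e-07). Nnat, which encodes a small membrane proteolipid, was at 8.13 to 43.3 CPM in basal and 1.08 to 5.77 CPM in luminal libraries (2.93 ± 0.47, SE; edgeR, adjusted p = 7.86e-05). All 3 are paternally expressed, while Rian and Atp10a are maternally expressed. The groups did not overlap for any of the 3, which is not a result, since they were picked for the size of their difference. Nap1l5 and Zdbf2 also passed the filter on low counts only through their basal libraries, so their direction was fixed. In the luminal direction, Rasgrf1, a paternally expressed Ras exchange factor gene, was at 72.3 to 201 CPM in luminal and 0.136 to 1.25 CPM in basal libraries (-8.20 ± 0.50, SE; edgeR, adjusted p = 5.91e-09). Over the alternatives its difference ran from -7.93 to -9.26, the latter without basal replicate 1. Rasgrf1 passed the filter on low counts only through its luminal libraries, so its direction was fixed as well.

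The wider list held 63 other imprinted genes, of which 62 were in the table and 43 were tested. In basal cells 12 of these were higher and in luminal cells 14, or 27.9% and 32.6% of those tested, beside 31.2% and 33.6% of all genes. The counts were 9 basal and 16 luminal with upper-quartile factors, 8 and 17 with library totals alone, and 17 and 14 with no filter on low counts. The whole table moved as well. Library totals gave 3705 genes higher in basal and 5705 in luminal cells, against 4558 and 4904 in the main setting. Upper-quartile factors and library totals moved the median over all genes by -0.12 and -0.19 on the log2 scale. With no filter 20612 genes were tested, so those counts have a different base. Groups did not overlap for 7 genes in the basal direction and 11 in the luminal direction, against 25.3% and 24.7% of all genes tested. The median log2 difference was -0.04, against -0.05 over all genes. Of 20 tested paternally expressed genes 6 were higher in basal and 6 in luminal cells, and of 23 maternally expressed genes 6 were higher in basal and 8 in luminal cells. Among the 24 tested genes whose imprinting is widely shared between tissues, 7 were higher in basal and 8 in luminal cells. The calls of the wider list thus fell in both directions. For some of them, including Rian, Nap1l5, Zdbf2, Slc22a18, Sgce, Ppp1r9a and Rasgrf1, the filter on low counts had fixed the direction.

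**Figure D4:**
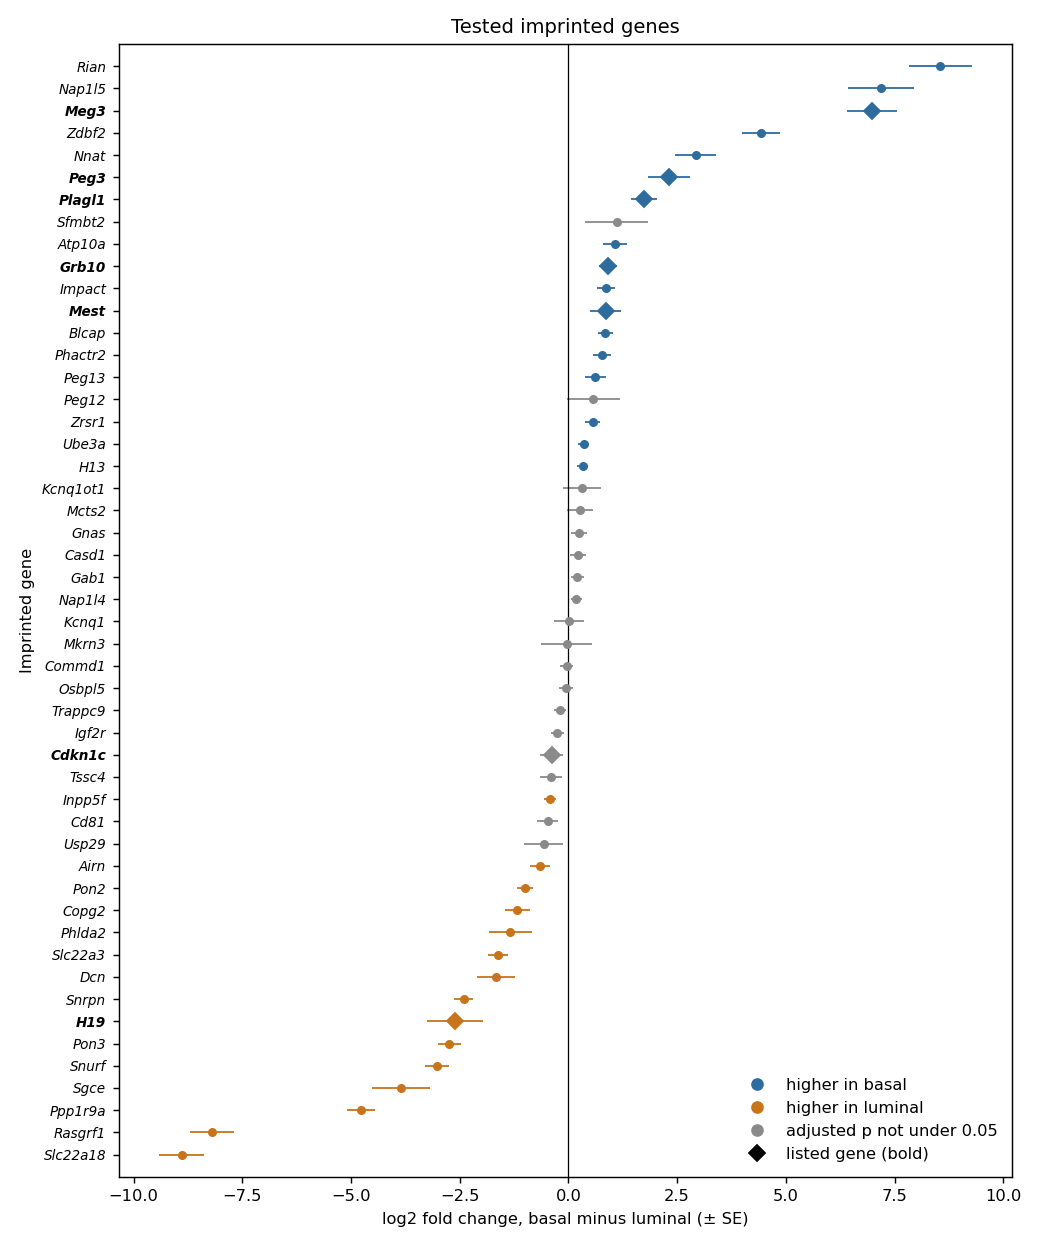
Log2 fold change, basal minus luminal, with its standard error for the tested listed genes other than Dlk1 (diamonds, bold) and the tested genes of the wider imprinted list (circles), coloured by the direction of the call. Differences run from 8.55 for Rian to -8.89 for Slc22a18, and the listed genes are spread over both sides with most on the basal side.

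Close relatives without imprinting were compared with the listed genes. Dlk2, the paralogue of Dlk1, was at 13.2, 21.8, 14.9, 23.1 and 11.3 CPM in basal libraries and at 0.125, 0, 0.245, 0.0764 and 0 CPM in luminal libraries. Its groups did not overlap, and the log2 difference was 7.46 ± 0.51 (SE; edgeR, adjusted p = 1.48e-08). Over the alternatives that difference ran from 7.11 to 8.27, the latter without luminal replicate 3. Dlk2 passed the filter on low counts only through its basal libraries, so its direction was fixed once it was tested. Per kilobase, basal Dlk2 (9.45 ± 2.96 CPM, SD, n = 5) and Dlk1 (6.00 ± 2.18) lay within their spread. Over the basal libraries, Dlk2 was highest in replicate 4, where Dlk1 was lowest, and lowest in replicate 5, where Dlk1 was highest. Of the relatives of Plagl1, the growth-promoting factor gene Plag1 and Plagl2 were lower in basal cells, opposite to Plagl1, with log2 differences of -3.05 ± 0.61 and -0.72 ± 0.20 (SE; edgeR, adjusted p = 0.000542 and 0.00579). The basal libraries of Plag1 alone would not have passed the filter on low counts, so the filter favoured its direction. Of the relatives of Grb10, Grb7, an adaptor of receptor tyrosine kinases, was lower in basal cells (log2 difference -3.30 ± 0.17, SE; edgeR, adjusted p = 8.57e-10), and Grb14 did not pass. Of the relatives of Cdkn1c, the cell cycle inhibitor gene Cdkn1a was higher in basal cells by 1.09 ± 0.24 (SE; edgeR, adjusted p = 0.00107), and Cdkn1b did not pass. Maged1, which like Ndn encodes a MAGE family protein, was higher in basal cells by 1.28 ± 0.16 (SE; edgeR, adjusted p = 6.09e-06), and Maged2 did not pass. In all, 3 of the 9 relatives were higher in basal cells, 3 were higher in luminal cells and 3 did not pass, or 33.3% each way beside 31.2% and 33.6% of all genes tested.

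Factors that establish or keep imprints were read as the machinery behind the list. Dnmt1, the maintenance DNA methyltransferase, was lower in basal cells (log2 difference -0.70 ± 0.19, SE; edgeR, adjusted p = 0.00491), as was its partner Uhrf1 (-1.81 ± 0.40, SE; edgeR, adjusted p = 0.00109). Both separated the groups without overlap, and both are known to be more abundant in dividing cells. Dnmt3l, a cofactor of de novo methylation best known from germ cells, was at a mean of 3.44 CPM in basal and 0.201 CPM in luminal libraries (log2 difference 4.0 ± 0.58, SE; edgeR, adjusted p = 3.00e-05). It passed the filter on low counts only through its basal libraries, so its direction was fixed once it was tested. Trim28, the co-repressor recruited to imprints, was higher in basal cells by 0.55 ± 0.15 (SE) and Arid4b, a chromatin regulator that acts on the Prader-Willi imprint, by 0.61 ± 0.14 (SE; edgeR, adjusted p = 0.00554 and 0.00133). With library totals alone the Trim28 call was lost (0.36, adjusted p = 0.0563). Zfp57, Zfp445, Setdb1 and Dnmt3b did not pass, and Dppa3 was too low to test. Ctcf, Dnmt3a and Arid4a were higher in basal cells by 0.28 to 0.39 on the log2 scale, and each of these calls was lost under at least 9 of 17 alternatives. In all, 6 of 12 tested factors were higher in basal and 2 in luminal cells, or 50% and 16.7% against 31.2% and 33.6% of all genes tested, but the basal count was 3 with upper-quartile factors and 2 with library totals alone.

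The genes whose log2 CPM followed Dlk1 most closely over all 10 libraries were P2ry1 (Pearson's r = 0.998), Apobec1 (0.996), 6530402F18Rik (0.996), Chst15 (0.995) and Cyp7b1 (0.995). These values describe genes that separate the same 2 groups of libraries, and none of the 5 is on either list of imprinted genes.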

How the data were processed

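The authors deposited raw read counts per Entrez gene, with 1 column per library and no normalization. Per the study's methods reads were trimmed with cutadapt and aligned to mm10 with bowtie2 (cutadapt 4.2 and Bowtie2 2.3.5.1 in the submitters' processing notes). The counting tool, annotation, strand and handling of multiply mapped reads are not given in the sources used here. Of 24594 genes 24570 were matched to a symbol and position in RefSeq (GRCm38.p6). Transcript lengths and exon overlaps came from GENCODE M21.

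Groups were taken from the label for cell type and replicate numbers from the titles. Genes were filtered with filterByExpr (minimum count 10, minimum total 15), which left 14609 of 24594. The main comparison was edgeR's quasi-likelihood test (edgeR 4.0.16, R 4.3.3, two-sided, TMM factors, cell type as the only term), with Benjamini-Hochberg adjustment over all genes tested and a threshold of 0.05. The SE was derived from the fold change and its F statistic. The listed genes and the lists beside them were chosen with earlier results of these data known. Genes named are the 10 listed genes, the genes of the wider imprinted list in their clusters, up to 5 of that list with the largest differences each way (adjusted p under 0.05, at least 1 CPM in the higher group), all maintenance factors and relatives, and the 5 genes (at least 1 CPM on average) most correlated with Dlk1 on log2(CPM + 0.5). Genes flanking the Dlk1 domain and microRNA intervals were added after values were seen. The alternatives were other scaling factors, other filters, DESeq2 1.42.0, the replicate number as a block and leaving out each library. Zfp264 and 2 red blood cell markers had no match in the table.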

Additional observations from a re-analysis of the deposited data

Results flagged for a closer look

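Of 127 groups of 5 libraries over the 73 named genes, 19 held a library that stood apart from the other 4 (Dixon's test at the 95% level), where chance flags about 1 in 20 groups. The groups are not independent, since they share libraries.

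Among the listed genes, Peg3 was at 14.0 CPM in basal replicate 2 against 5.65 to 7.92 CPM in the other basal libraries, and luminal replicate 5 held 4.19 CPM of Cdkn1c (others 6.58 to 7.44). In basal replicate 1, Rian was at 27.6 CPM (others 5.11 to 11.5), Nap1l5 at 26.3 CPM (others 5.88 to 10.1), Rasgrf1 at 1.25 CPM (others 0.136 to 0.313) and Osbpl5 at 34.5 CPM (others 49.6 to 54.2).

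In luminal replicate 4, Tssc4 was at 31.2 CPM (others 15.4 to 18.6), Tspan32 at 1.07 CPM (others 0), Ddc at 0.305 CPM (others at most 0.0613) and Atp10a at 1.91 CPM (others 4.69 to 5.28). In basal replicate 4, Tssc4 was at 22.9 CPM (others 11.1 to 14.2), Asb4 at 0.50 CPM (others at most 0.0682) and Dnmt3a at 51.6 CPM (others 71.1 to 76.5). In luminal replicate 1, Sgce was at 2.50 CPM (others 0.685 to 1.21) and Casd1 at 13.9 CPM (others 8.88 to 10.2). In luminal replicate 2, Ascl2 was at 0.579 CPM (others at most 0.0613) and Nap1l5 at 0.316 CPM (others 0). Pon2 was at 36.7 CPM in basal replicate 3 (others 19.9 to 24.6), and Dnmt3b at 4.80 CPM in basal replicate 5 (others 2.06 to 2.25).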

How the results depend on the processing

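Among the listed genes other than Dlk1, the direction held under every alternative that gave a value, and of those genes only Mest changed its side of the threshold. Without the replicate block 5 of them were higher in basal cells and with it 4, Mest then having a log2 difference of 0.90 (adjusted p = 0.0549). Same-numbered libraries share a number in their descriptions whose meaning the labels do not give. Their deviations from the group means correlated at -0.124 to 0.221. Such values between different cell types cannot show whether the libraries came from the same animals. The number was therefore used as a block only as an alternative, and a pairing remains possible. Upper-quartile factors and library totals moved the median over all genes by -0.12 and -0.19 on the log2 scale. The mean basal level of Dlk1 stayed between 25.0 and 31.6 CPM.

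With at least 10 reads in every library, the listed genes still tested were Plagl1, Grb10, Mest and Cdkn1c. Of these, 3 were higher in basal and 0 in luminal cells. Other imprinted genes numbered 9 higher in basal and 9 higher in luminal cells, and 3 maintenance factors were higher in basal cells. The filter left out Meg3, Peg3, H19 and Dnmt3l, while Ctcf and Arid4a were still tested but no longer passed (adjusted p = 0.0506 and 0.0595). Among widely imprinted genes alone, 7 of the wider list were higher in basal and 8 in luminal cells. Maintenance factors higher in basal cells numbered 2 under library totals, 3 under upper-quartile factors and 3 to 5 when a library was left out.

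The log2 differences that changed sign, all of genes that did not pass, were as follows. With DESeq2 size factors and with DESeq2 Mkrn3 stood at 0.0035 and 0.0030. With upper-quartile factors Kcnq1 stood at -0.13 and Setdb1 at -0.037, and with library totals Kcnq1 stood at -0.18, Nap1l4 at -0.012, Zfp445 at -0.046, Setdb1 at -0.11 and Maged2 at -0.064. With no filter Osbpl5 stood at 0.0068, Mkrn3 at 0.027 and Zfp57 at 0.0082, and with at least 10 reads in every library Kcnq1 stood at -0.010. With the replicate block Zfp57 stood at 0.18. When a library was left out Kcnq1 ran from -0.24 to 0.36, Osbpl5 from -0.14 to 0.025, Mkrn3 from -0.49 to 0.24, Zfp57 from -0.25 to 0.22, Setdb1 from -0.029 to 0.15 and Maged2 from -0.0022 to 0.22. The causes were not tested.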
